A study of Mus musculus with 8 samples.

Results

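miR-21 is a small regulatory RNA that is known for its abundance in many tissues and for its part in tissue fibrosis, and it was followed here in 4 organs of young and elderly mice. It was read by 1 probe, mmu-miR-21, of the 200 probes on a DNA chip for mouse miRNAs (Genopal-MICM, Mitsubishi Rayon), and that probe was chosen by its name alone. Small RNAs of lung, liver, kidney and heart of male ICR mice, an outbred stock, were labelled with a fluorescent dye and hybridised, each to a chip of its own. The 8 arrays were 1 per tissue at 1 month of age (young) and 1 per tissue at 14 months (elderly), and no treatment or introduced allele was named for any of them. There were therefore no replicates, and the labels did not say how many mice an array stood for or whether the tissues of 1 age came from the same mouse.

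As background, miR-21 is processed from a hairpin whose gene, Mir21a, lies at the end of the protein-coding gene Vmp1, and like other miRNAs it is loaded onto an Argonaute protein and pairs with messenger RNAs mainly through its seed, bases 2 to 8. Transforming growth factor beta, the main growth factor of scar formation, raises its mature level through Smad proteins, and its well-studied targets include Pdcd4, an inhibitor of translation, Spry1, an inhibitor of growth-factor signalling, and Smad7, an inhibitor of the transforming growth factor beta pathway. In mouse models of kidney, heart and lung injury it accumulates in the diseased tissue, and blocking it has been reported to lessen scarring.

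The sequences of the miR-21 group are given because they show what a probe of this name could have captured. They were taken from RefSeq annotation on GRCm38.p6, and the capitals mark the seed.
mmu-miR-21a-5p: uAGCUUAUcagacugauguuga
mmu-miR-21a-3p: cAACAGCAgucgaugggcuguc
mmu-miR-21b: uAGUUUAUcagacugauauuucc
mmu-miR-21c: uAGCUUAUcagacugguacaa
Both arms of miR-21a come from chromosome 11 on the minus strand, miR-21a-5p (22 bases) from chr11:86584120-86584141 and miR-21a-3p from chr11:86584082-86584103. Mir21a lies within the annotated extent of Vmp1 (chr11:86583858-86683836, minus strand, also called Tmem49), and its hairpin ends 209 bases from the 3′ end of that gene. miR-21b (23 bases) is encoded at chr3:29636768-29636790 on the plus strand, and miR-21c (21 bases) at chr8:128278188-128278208 on the minus strand. Counted from 1 at the 5′ end, miR-21b differed from miR-21a-5p by C4U, G18A, G21U and A22C and was identical at 18 of 22 positions. miR-21c differed by A16G, G18A, U19C, U20A and G21A and was identical at 16 of 21 positions. The seed AGCUUAU was held by 2 mature sequences of the 1738 annotated in mouse, miR-21a-5p and miR-21c. Of the 200 probes, 170 matched a RefSeq name, and 0 other miRNAs among these had that seed. Over the whole length, the annotated arms of the miRNAs named on the chip were compared with miR-21a-5p. The most similar arms belonged to miR-101a, with 14 of 22 bases in common, and to miR-200a and miR-27b with 13 each. Each was a 5p arm. The chip names do not give the arm, so these probes may read the other arm, and the closest probe was not settled.

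The hairpin of miR-21a is given to show where both arms sit, with each mature arm in capitals.
Mir21a: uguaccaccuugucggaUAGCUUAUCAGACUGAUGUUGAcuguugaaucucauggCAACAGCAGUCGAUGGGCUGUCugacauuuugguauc
It spans chr11:86584067-86584158, 92 bases, with the 5p arm at hairpin positions 18 to 39 and the 3p arm at positions 56 to 77. The old name of the probe, without a star, stood for the main product of the hairpin, which is the 5p arm. The probe's own sequence was not analysed here, so the signal cannot be divided among miR-21a-5p, miR-21b and miR-21c.

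The tissue labels were checked against miRNAs known to be particular to a tissue, in units of fluorescence above background. miR-122a, the dominant miRNA of hepatocytes, reached 1193 and 1973 units in young and elderly liver and no more than 5.72 in the other 6 arrays. miR-1, a miRNA of cardiac and skeletal muscle, reached 3325 and 2503 units in heart and no more than 48.2 elsewhere. miR-34b and miR-34c, listed for airway epithelium, read 98.9 and 344, and 81.6 and 285 units in lung, and no more than 16.6 elsewhere. The kidney markers were mixed. miR-10b read 74.6 and 69.1 units in kidney and no more than 16.5 elsewhere. miR-194 read 193 and 249 units in kidney but also 81.0 and 128 in liver, and miR-192 27.7 and 35.4 in kidney but also 15.3 and 25.2 in liver. miR-204 was under the detection limit of 10 units on every array. The summed signal of all 200 probes ran from 3308 units in young liver to 36449 in elderly lung, and between 53 and 110 miRNAs reached 10 units. The liver arrays were thus far dimmer than the others, and every comparison between tissues was made after the arrays had been brought to 1 common distribution of intensities (quantile scaling) and also without any scaling.

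miR-21 was detected on every array and held its highest rank and share of the signal in liver. Before scaling, miR-21 gave 278 units in young lung and 371 in elderly lung. It gave 72.3 units in young liver and 135 in elderly liver. In kidney it gave 188 and 285 units, and in heart 145 and 121, young first in each case. The signal as deposited stood 4.08 times over the background of its array in young liver, the dimmest case, and 18.8 times in elderly lung, the brightest, so no reading was near the detection limit. In raw brightness both lung arrays were thus near the top and both liver arrays near the bottom. Differences in an array's level of a miRNA can come from fewer cells of a type or from less RNA per cell, and in whole tissue these cannot be told apart.

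**Figure D1:**
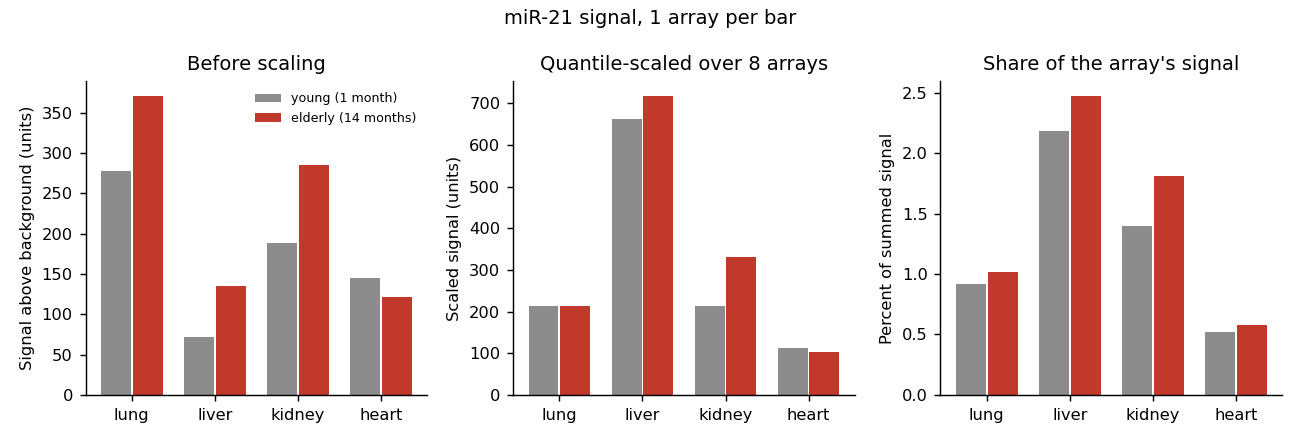
Level of miR-21 in each tissue, young (grey) and elderly (red), 1 array per bar: signal above background in units of fluorescence (left), the same after quantile scaling (middle) and as percent of the summed signal of the array (right). Lung was brightest before scaling (278 and 371 units), whereas liver stood highest after scaling (663 and 718 units) and as a share (2.19% and 2.47%).

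Set against the other miRNAs of the same array, the order was different. miR-21 took 2.19% of the summed signal of young liver and 2.47% of elderly liver. It took 1.40% and 1.81% in kidney, 0.918% and 1.02% in lung, and 0.520% and 0.582% in heart. The shares of liver and heart contain 1 very abundant tissue miRNA or a few: miR-122a alone held 36.1% of both liver signals, and miR-1, miR-133a, miR-133b and miR-208, the miRNAs of heart muscle, held 32.6% and 30.6% of the heart signals. With these 5 tissue miRNAs left out of every sum, the share of miR-21 was 3.43% and 3.88% in liver, 1.40% and 1.82% in kidney, 0.921% and 1.02% in lung, and 0.772% and 0.838% in heart, which left the order of the tissues as it was. In all 4 tissues the share was the larger on the elderly array.

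By rank among the 200 probes, miR-21 stood 7th in young liver and 6th in elderly liver. It was 25th in both lung arrays and in young kidney, and 20th in elderly kidney. In heart it was 36th in the young and 38th in the elderly array. Probes differ in brightness per molecule, so these ranks compare 1 probe between arrays and do not order miRNAs by abundance. After quantile scaling the value of a miRNA follows from its rank alone, and miR-21 therefore had the identical scaled level of 213 units on both lung arrays and on young kidney. Its scaled levels were 663 and 718 units in liver, 330 in elderly kidney, and 113 and 103 in heart.

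**Figure D2:**
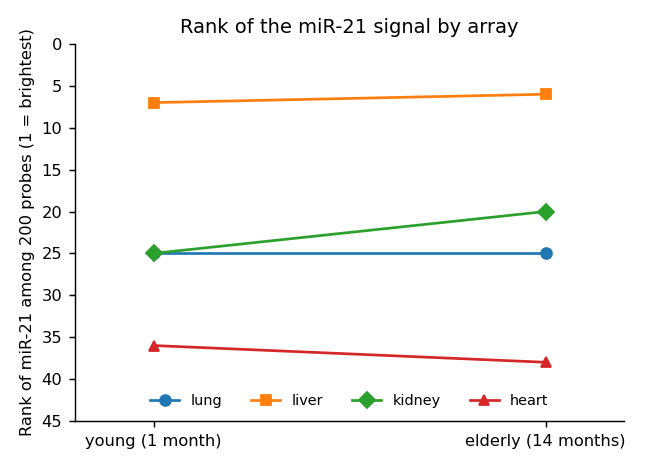
Rank of miR-21 among the 200 probes of each array by signal above background, with rank 1 at the top and 1 line per tissue from the young (left) to the elderly (right) array. Liver held ranks 7 and 6 and heart ranks 36 and 38, while kidney was the tissue with the largest step between the ages, from 25 to 20.

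Which tissues differed in miR-21 was tested on the scaled log2 levels, with age as a block, so that the 2 ages of a tissue stood in for replicates. With the shared age difference taken out, the p-values rest on how unevenly the 2 ages differed from tissue to tissue. Differences between mice are mixed into that spread and could not be measured apart. The mean log2 level of miR-21 was 9.43 ± 0.081 in liver (SD, n = 2 arrays), 8.05 ± 0.44 in kidney, 7.74 ± 0 in lung and 6.75 ± 0.094 in heart. The SD of 0 in lung is a property of the scaling, since both arrays had the same rank. Over the 4 tissues the level of miR-21 differed (limma F = 39.8, adjusted p = 0.000635), but so did that of 75% of the 96 miRNAs tested, and miR-21 was 14th of these by p.

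The scaled level of miR-21 was higher in liver than in each other tissue. Liver exceeded heart by 2.68 on the log2 scale, or 6.39-fold (95% interval 2.09 to 3.26, limma adjusted p = 0.000149), in a contrast in which 59.4% of all miRNAs were called. Liver exceeded kidney by 1.38, or 2.60-fold (0.79 to 1.96, adjusted p = 0.00459, with 44.8% of miRNAs called). Lung minus liver was -1.69 (-2.28 to -1.11, adjusted p = 0.00126), again with 59.4% called. The direction of these differences was set by the scaling: without any scaling liver had the lowest signal of miR-21, lung minus liver became 1.70 and liver minus kidney -1.23, and liver minus heart was -0.42 with an adjusted p of 0.249. With shares of this size called, a call does not set miR-21 apart from other miRNAs.

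Heart had the least miR-21 after scaling. Kidney exceeded heart by 1.30, or 2.46-fold (0.71 to 1.88, limma adjusted p = 0.00554, with 32.3% of miRNAs called), whereas without scaling this difference was 0.81 with an adjusted p of 0.0546. Lung exceeded heart by 0.98, or 1.98-fold (0.40 to 1.57, adjusted p = 0.0260, with 24.0% called). Over the alternative settings the lung-heart difference ran from 0.27 to 1.28 and its adjusted p from 0.000715 to 0.231, and it passed the threshold in 14 of 19 of them. Lung and kidney were neighbours that did not differ beyond their spread, with a difference of -0.31 (-0.90 to 0.27, adjusted p = 0.368, in a contrast with 28.1% of miRNAs called). In 4 scalings that difference passed the threshold, with kidney higher (lung minus kidney -0.78 to -0.72). The order liver, kidney, lung, heart held in 10 of the 12 settings that gave a level, and lung, kidney, heart, liver was the order in the other 2, both of them without scaling. These settings share the same arrays and overlap in method, so they are not independent.

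**Figure D3:**
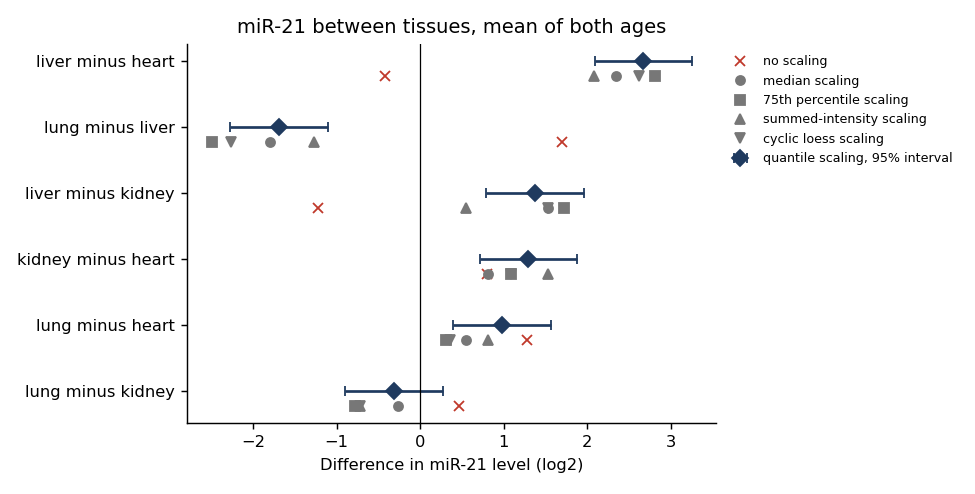
Differences in the log2 level of miR-21 between each pair of tissues, with the point and bar giving the quantile-scaled estimate and its 95% interval and the small markers giving other scalings. Only the interval of lung minus kidney includes 0 after quantile scaling, and without scaling the 3 pairs with liver and lung minus kidney lie on the other side of 0.

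The comparison of ages asked whether miR-21 differed between 1 and 14 months. In kidney the scaled level of miR-21 was 213 units in the young and 330 in the elderly array, 1.55-fold higher or 0.63 on the log2 scale. In liver it was 663 and 718 units, 1.08-fold or 0.11. In lung it was 213 and 213 units, a fold of 1.00 that reflects the shared rank. In heart it was 113 and 103 units, 0.912-fold or -0.13. These are single pairs of arrays and carry no test. The median log2 difference of all detected miRNAs was -0.08 in kidney, 0 in liver, -0.06 in lung and -0.10 in heart, so kidney was the tissue in which miR-21 stood farthest from the bulk.

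Only in kidney did the scaled fold of miR-21 exceed 1.5, a threshold the study used to list higher miRNAs in another comparison, of klotho-deficient with wild-type mice. That threshold was passed in kidney by 11.5% of the 96 miRNAs that reached 10 units on at least 1 array of the pair, and by 11.6% in lung, 23.3% in liver and 11.3% in heart. Among the 88 miRNAs detected on both kidney arrays miR-21 had the 8th highest fold. Those ahead of it were miR-29b (7.48-fold), miR-29a (5.24-fold), miR-29c (3.83-fold), miR-22 (1.99-fold), miR-296 (1.64-fold), miR-142-3p (1.61-fold) and miR-101a (1.59-fold), and miR-187 (1.47-fold) came next under the threshold. These neighbours were named after their values were seen. In the other tissues miR-21 lay near the middle, 34th of 81 in liver, 48th of 87 in heart and, with ties, 37.5th of 89 in lung. The 10-unit limit behind these counts was applied after scaling. Before scaling only 53 miRNAs reached it in young liver and 57 in elderly liver. The liver counts therefore include readings near background, such as miR-181a* at 3.46 and 5.02 units.

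**Figure D4:**
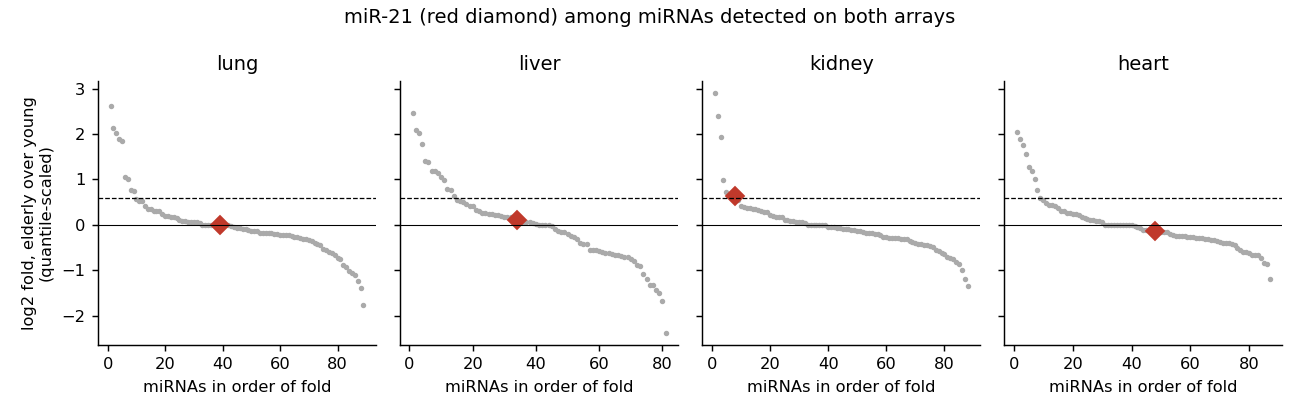
Log2 fold (elderly over young, quantile-scaled) of every miRNA detected on both arrays of a tissue, sorted from highest to lowest, with miR-21 as a red diamond and the 1.5-fold level as a dashed line. In kidney miR-21 sits in the upper tail, 8th of 88 and just above the line at 1.55-fold, and in the other 3 tissues it sits within the flat middle.

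The size of the kidney difference depended on how the arrays were put on a common scale, while its direction did not. Without scaling the kidney signal went from 188 to 285 units, 1.51-fold, against a median log2 difference of all miRNAs of 0.11. With scaling to the summed signal the fold was 1.30, with cyclic loess 1.38, with the 75th percentile 1.18, with the median 1.13, and with quantile scaling inside each tissue pair 1.12. Over 13 settings the kidney fold of miR-21 lay between 1.12 and 1.55, was above 1 in 13 of 13 and above 1.5 in 5, and miR-21 ranked between 5th and 21st by fold. The settings overlap, since several repeat a scaling with another background or the second table. Among the 8 scalings of the same input the fold was above 1 in 8 and above 1.5 in 2. Over all 13 settings the log2 difference of miR-21 in kidney stood 0.25 to 0.72 over the median of all detected miRNAs.

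The other tissues were less steady. The lung fold of miR-21 lay between 0.921 and 1.33 and was above 1 in 6 of the 13 settings. It was under 1 only with median scaling. In the settings with quantile scaling it was exactly 1, as the shared rank fixes it. The liver fold lay between 0.925 and 1.875, above 1 in 12 settings, and its unscaled value of 1.87 came with a median log2 difference of all liver miRNAs of 0.86. The heart fold lay between 0.834 and 1.12, above 1 in 5 settings. Kidney had the highest fold of the 4 tissues in 11 settings and liver in the other 2, both without scaling. All 4 tissues had more miR-21 at 14 months in 4 of the 13 settings.

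**Figure D5:**
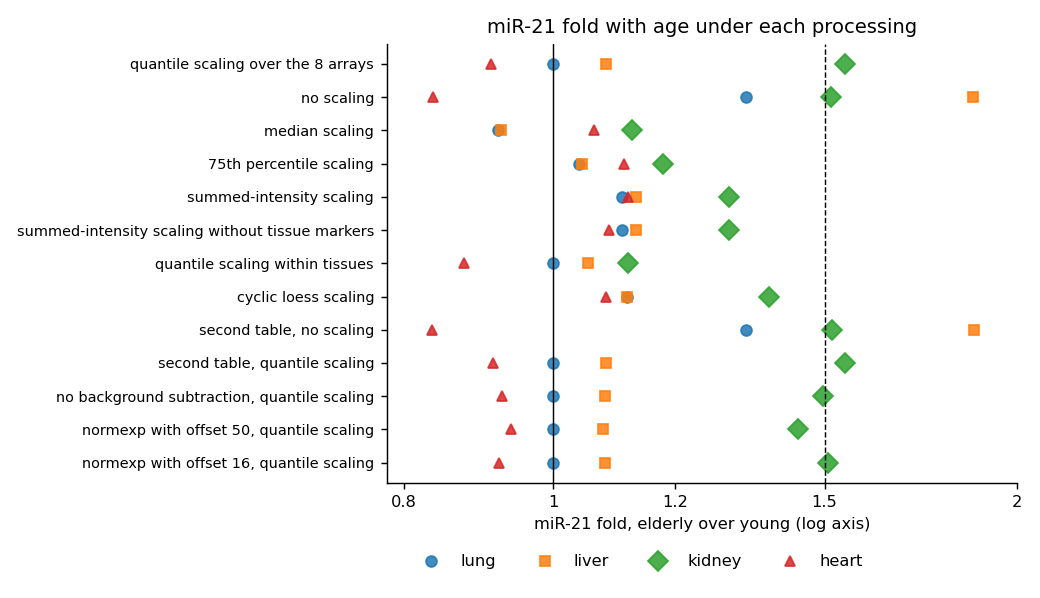
Fold of miR-21 (elderly over young, logarithmic axis) in each tissue under 13 settings of background and scaling, with the dashed line at 1.5-fold. Kidney lies to the right of 1 in all 13 settings, between 1.12 and 1.55, whereas heart falls on both sides of 1. Lung lies at 1 or above it except with median scaling (0.921).

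Taken over tissues, miR-21 did not pass the test for a difference between ages. The mean log2 difference was 0.15 ± 0.33 (SD, n = 4 tissues), with a limma 95% interval of -0.26 to 0.57 and an adjusted p of 0.683, and the alternatives gave adjusted p-values from 0.225 to 1. In the same fit 4.17% of the 96 miRNAs were called higher in elderly tissue and 3.12% lower, and miR-21 was 21st by the size of a difference toward higher levels. The exact two-sided sign-flip test over the 4 tissues gave p = 0.75, where 0.125 is the smallest p that 4 tissues allow. With quantile scaling the mean without the kidney pair was -0.0063. With 75th percentile, cyclic loess and both summed-signal scalings all 4 tissues had a positive difference, and the sign-flip p was at its smallest value of 0.125. The interval still allows a mean difference of up to 0.57 on the log2 scale. In both tests the 4 tissues stood in for replicates, so the p-values reflect spread between tissues and not between mice. Whether a single animal supplied every organ at an age was not stated. The limma calls over tissues given below for the miR-29 members and miR-142-3p have the same limit, and a difference between animals was not tested.

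miR-21 is commonly grouped with other miRNAs reported to promote fibrosis, and 5 of the 9 names on that list were on the chip. The lists used here counted names, and some held an old and a newer name of 1 miRNA. Of the 4 that could be tested over tissues, 0 were called, beside 4.17% of all miRNAs tested called higher and 3.12% lower. A count of 0 among so few is near those shares. Their median log2 difference was 0.10 against -0.05 for all miRNAs. miR-199a, a miRNA of mesenchymal cells, differed by 0.14 (limma adjusted p = 0.835) and miR-34a, a target of the tumour suppressor p53, by 0.29 (adjusted p = 0.643). miR-192, an epithelial miRNA of kidney and gut, differed by 0.07 and miR-208, encoded within a myosin gene of heart muscle, by -0.06 (both adjusted p = 0.873). In kidney 3 of the 5 reached 10 units on at least 1 array, with a median log2 difference of 0.29. Of these 3, 0 were above 1.5-fold, beside 11.5% of all miRNAs counted in that way. Before scaling miR-34a went from 53.4 to 53.5 units in kidney, miR-199a from 32.5 to 36.8 and miR-192 from 27.7 to 35.4. miR-155, a miRNA of activated immune cells, was under 10 units on both kidney arrays.

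The miRNAs reported to restrain fibrosis included the only members of either fibrosis list that were called, all of 1 family. Of 22 names on this list 20 were on the chip and 19 could be tested. Of these, 3 were called higher and 0 lower, beside 4.17% and 3.12% of all miRNAs tested. The list median was -0.04 against -0.05 for all. The 3 were miR-29a (1.86, limma adjusted p = 0.00197), miR-29b (2.51, adjusted p = 0.000234) and miR-29c (1.84, adjusted p = 0.00113), which act on messenger RNAs of collagens. The miR-29 family is the subject of the study, and this list was drawn up with results of these data known, so its count is not independent evidence. In kidney 4 of the 16 listed miRNAs that reached 10 units on at least 1 array were above 1.5-fold, beside 11.5% of all, namely the miR-29 members and miR-101a, and the list median was 0. The miR-29 members and miR-101a were named after their values were seen. By mean intensity over the 8 arrays the first members were miR-26a, miR-1, miR-133a, miR-30d and miR-133b. In kidney before scaling miR-26a went from 497 to 585 units and miR-30d from 462 to 543, while miR-1, miR-133a and miR-133b, all of muscle, were under 10 units at both ages. Over tissues these 5 differed by -0.05 to 0.23, with limma adjusted p-values from 0.450 to 0.992. For miR-1, miR-133a and miR-133b the liver and kidney arrays were under 10 units, so their differences there were fixed at 0. Before scaling miR-29b in kidney went from 95.2 to 647 units and miR-29a from 109 to 561.

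Markers of other cell types were read beside the kidney value. Of 8 names of leukocyte miRNAs 6 were on the chip, and 4 reached 10 units on at least 1 kidney array. Of these 4, 2 were above 1.5-fold, beside 11.5% of all miRNAs counted in that way. One of the 2, miR-142-5p, was at 6.98 units in young kidney, under the limit, and at 14.3 in elderly kidney. The 6 together gave a summed signal of 59.5 units in young and 87.9 in elderly kidney. miR-142-3p, which is restricted to blood cells, went from 11.0 to 20.3 units there and was the only leukocyte miRNA called over tissues (0.81, limma adjusted p = 0.0307). Its liver readings before scaling were only 2.78 and 4.71 units. The 4 miRNAs of smooth muscle and fibroblasts on the chip summed to 585 and 630 units in kidney, 0 of them were above 1.5-fold, and their median log2 difference was -0.06. The 2 endothelial miRNAs summed to 340 and 405 units. The 1 erythroid miRNA on the chip, miR-144, was lower in elderly kidney, at 46.4 and 32.3 units (log2 difference after scaling -0.74). Of the 3 neuronal miRNAs on the chip 1 reached the limit in kidney, miR-124a at 3.12 units in the young and 50.9 in the elderly array, while miR-9 (3.72 and 2.74 units) and miR-128a (3.58 and 3.61 units) were under it at both ages. The 5 miRNAs of heart muscle stayed near background in kidney, summing to 8.69 and 7.81 units. The part of leukocytes or of any other cell type in the kidney value of miR-21 was not tested.

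The miRNAs whose profile over the 8 arrays was most like that of miR-21 were sought among the 65 others detected on all of them, by Pearson's r of scaled log2 levels. These were miR-193 (r = 0.91), miR-101b (0.85), miR-26b (0.83), let-7g (0.82) and miR-101a (0.79). The 8 points come in 4 tissue pairs, and over the 6 arrays without liver r was 0.86 for miR-193, 0.80 for miR-26b and 0.87 for let-7g, but 0.50 for miR-101a and -0.15 for miR-101b, so the likeness of miR-101b rested on liver. Likeness also shifted with scaling, and on unscaled values let-7b came first with r = 0.92 while miR-193 came 36th. These are descriptions over 8 arrays and carry no test.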

How the data were processed

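The deposited tables held fluorescence intensity for 200 probes on 8 arrays. The first of the authors' tables is not normalized; the second held the same values less 1 constant per array, rounded and floored. Scanner, background method and software versions were not given in the sources used here. From the first table the authors' constant per array (20.2 to 24.0 units, the midpoint of the difference between both tables) was subtracted, a choice made after the tables were seen. Values were quantile-scaled over the 8 arrays, floored at 10 units and taken as log2. Groups came from the labels. Folds are elderly over young.

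miRNAs at 10 units or more after scaling on at least 4 arrays (96) were tested with limma 3.58.1 in R 4.3.3. Tissue (ages) or age (tissues) was a block, with Benjamini-Hochberg adjustment at 0.05. With quantile scaling, counts past a fold threshold and ranks by fold used the limit after scaling too. The script was tested on simulated data. The 1.5-fold threshold is one the study used for klotho-deficient against wild-type mice, not for these arrays. Alternatives were other backgrounds, scalings, limits and tests, and leaving out each tissue pair. The number of arrays limits the precision.

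Named were miR-21, the 5 miRNAs most like it, those nearest in sequence, and up to 5 of each fibrosis list by mean intensity, with cell type markers; the kidney miRNAs with the highest folds and the called list members were named after their values were seen. Likeness over 4 differences was not given, as 4 points are too few. miR-21 and the lists were chosen with earlier results of these data known.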

Additional observations from a re-analysis of the deposited data

Results flagged for a closer look

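With quantile scaling, the log2 difference of miR-21 between ages was positive in kidney (0.63) and negative in heart (-0.13), a gap of 0.76. It was likewise positive in liver (0.11) against heart, a gap of 0.25. Neither gap was tested, since each tissue had 1 array per age. The heart value turned positive under the median, 75th percentile, cyclic loess and both summed-signal scalings.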

How the results depend on the processing

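Every comparison rests on 1 array per age and tissue, so mouse and array cannot be told apart from age or tissue. The kidney fold of miR-21 fell under 1.5 with 75th percentile (1.18), cyclic loess (1.38), median (1.13), within-tissue quantile (1.12) and summed-signal scaling (1.30, and 1.30 without the 5 tissue miRNAs, a setting chosen after seeing the data), with no background subtraction (1.496) and with normexp at offset 50 (1.44). The liver fold passed 1.5 unscaled (1.87, and 1.875 in the second table). Without the kidney pair the mean difference was -0.0063 and the sign-flip p 1, and leaving out each pair gave means from -0.0063 to 0.25 and p from 0.50 to 1, while the sign-flip p was 0.125 with 75th percentile, loess and both summed-signal scalings and 0.25 unscaled. No other setting turned or called the mean.

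Unscaled values, and those of the second table, turned lung minus liver (1.70 in both), liver minus kidney (-1.23 in both), liver minus heart (-0.42 and -0.43) and lung minus kidney (0.47 in both), and left kidney minus heart at 0.81 in both, short of the threshold. Lung minus heart lost its call with the 75th percentile (0.31), loess (0.36), the median (0.55), no filter (0.98) and the summed signal without tissue miRNAs (0.27), and liver minus kidney with no filter (1.38, adjusted p = 0.0502). Lung minus kidney passed with the 75th percentile (-0.78), loess (-0.73) and both summed signals (-0.72 each). In young and elderly arrays alone, kidney minus heart was 0.92 and 1.68, liver minus kidney 1.63 and 1.12, and lung minus kidney 0 and -0.63.

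Of miRNAs called higher over tissues (4), there were 7 with loess, 9 with no scaling and in the second table, 8 within tissues, and 0 with no filter or the paired t-test. Of those called lower (3), there were 5 with loess or a limit of 30 units, 13 with the median, 8 within tissues, 6 with the summed signal, and 0 with no filter, the methods' t-test, its paired form or no tissue block, the fit with no replicate block. At an unadjusted p under 0.05 the counts higher and lower were 9 and 15 with limma, 6 and 10 with no filter, 5 and 8 in the paired test and 3 and 2 in the methods' t-test. Leaving out each tissue pair gave 0 to 7 higher and 0 to 5 lower, with 0 lower without lung, kidney or heart and 5 without liver. Counts above 1.5-fold moved in heart (11) to 6 with a limit of 30, no background, no scaling and the second table, 7 with normexp at offset 16 and 5 at 50. In kidney (11) they moved to 4 with the 75th percentile and the median, 5 with no background, normexp at 50 and the summed signal, and 7 with normexp at 16 and within tissues. In liver (24) they moved to 9 with the 75th percentile, 13 with a limit of 30, 8 with the median and within tissues, 40 unscaled and in the second table, 7 with normexp at 50 and 10 with the summed signal. In lung (11) they moved to 7 with the 75th percentile and 5 with normexp at 50. The cause of these shifts was not tested.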
